A study of Mus musculus with 4 samples.

Results

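The genes described here encode 10 antioxidant enzymes and redox proteins of mouse microglia: the superoxide dismutases *Sod1*, *Sod2* and *Sod3*, catalase (*Cat*), the glutathione peroxidases *Gpx1* and *Gpx4*, the peroxiredoxins *Prdx1*, *Prdx5* and *Prdx6*, and thioredoxin (*Txn1*). They were chosen by name, 10 of the 54532 genes listed in the count tables. *Sod3* is among them because the study had singled it out on these same samples, so its difference below is not independent evidence, and the other superoxide dismutases stand beside it as its paralogs. RNA sequencing was carried out on primary microglia from the cortex of newborn male CD1 mice, grown in mixed glia with GM-CSF, left behind when trypsin took off the astrocytes, and moved to medium without serum. Cultures received either 1 µM epigallocatechin gallate (EGCG, the main catechin of green tea) or the DMSO vehicle alone for 24 h. Each treatment has 2 biological replicates, giving 4 libraries, and the vehicle and EGCG libraries of a replicate were deposited together. The libraries held 33805071 counts (Vehicle replicate 1), 34300679 (EGCG replicate 1), 36307930 (Vehicle replicate 2) and 54970300 (EGCG replicate 2).

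Superoxide, the radical that microglia make with their NADPH oxidase and that mitochondria leak, is turned into hydrogen peroxide by superoxide dismutases. The cytosolic enzyme carries copper and zinc, the mitochondrial enzyme carries manganese, and the secreted enzyme, which binds heparan sulphate outside the cell, carries copper and zinc. Hydrogen peroxide is then removed by catalase in peroxisomes, by glutathione peroxidases at the expense of glutathione, and by peroxiredoxins, which are mostly recharged by thioredoxin.

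Before the antioxidant genes are described, the make-up of the cultures has to be given, because the libraries were not alike. The 10 microglia markers were found in every library, with summed levels of 6505 CPM under Vehicle and 7182 under EGCG in replicate 1, and 9036 and 8876 in replicate 2. CPM here is the count scaled to a common library size by edgeR's TMM method. Where 4 values are given in a row, the order is Vehicle and EGCG of replicate 1, then Vehicle and EGCG of replicate 2. *C1qa*, a complement subunit, was the most abundant of them per length. The gene named so for each marker list is the one with the highest mean TPM (a level per length) in Vehicle, and in other libraries another gene of the list could be higher. The 7 fibroblast markers summed to 423 CPM under Vehicle and 4.87 under EGCG in replicate 1, and to 157 and 174 in replicate 2. *Col1a1*, the most abundant of them per length, had 3962 counts under Vehicle and 4 under EGCG in replicate 1, and 1344 and 2040 in replicate 2, where *Col3a1*, picked out after its values were seen, was higher per length in both libraries. EGCG replicate 1 thus nearly lacked the collagen transcripts that the other 3 libraries held, and what was left of the list there was mostly *Pdgfra* (141 counts, picked out after its values were seen), which oligodendrocyte precursors also express. In bulk RNA, fewer cells of a type and less RNA per cell cannot be told apart.

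The 5 mural markers summed to 111 CPM under Vehicle and 74.4 under EGCG in replicate 1, and to 49.2 and 55.6 in replicate 2, with *Tagln* the most abundant per length at 684, 11, 138 and 316 counts. *Cspg4*, picked out after its values were seen, was higher per length than *Tagln* in the 3 libraries other than Vehicle replicate 1. It made up 72.5 of the 74.4 CPM in EGCG replicate 1, and the median EGCG minus Vehicle difference in log2 CPM over the 4 tested mural markers was -3.11 in replicate 1 and 0.32 in replicate 2. The 6 astrocyte markers summed to 19.4, 14.4, 13.7 and 14.8 CPM, led by *Aldh1l1*. That gene had 339, 383, 330 and 506 counts, whereas *Gja1*, picked out after its values were seen, had 160, 1, 66 and 107. The median difference over the 6 was -1.17 in log2 CPM in replicate 1 and 0.29 in replicate 2. Endothelial markers summed to 7.62, 5.74, 19.7 and 16.5 CPM, with *Pecam1* at 2, 3, 580 and 741 counts and *Kdr*, picked out after its values were seen and the higher in replicate 1, at 169, 155, 109 and 155. Among them the tight-junction gene *Cldn5* was at 0 counts in every library. The 6 oligodendrocyte lineage markers summed to between 99.4 and 105 CPM, with *Cnp*, which some other cells express too, the most abundant per length by its Vehicle mean. *Mbp*, picked out after its values were seen, made up most of that sum, at 69.5, 71.2, 70.8 and 69.9 CPM. The 4 neuronal markers, led by *Snap25*, summed to 17.5 and 16.7 CPM in the libraries of replicate 1 and to 0.791 and 1.14 CPM in those of replicate 2.

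All 10 antioxidant genes passed the filter of at least 10 counts summed over the 4 libraries that defined the 13811 protein-coding genes tested. In the edgeR quasi-likelihood test of EGCG against Vehicle, 1 of the 10, *Sod3*, had an unadjusted p under 0.05, and it was lower with EGCG. Over all genes tested, 0.116% had such a p in either direction and 0.0869% had it and were lower. *Sod3* was picked from these samples and passed the filter through its Vehicle counts (35 and 24, against 0 and 2 under EGCG). Its call is therefore not evidence about the 10 as a set. The other 9 had an unadjusted p of 0.6275 or above in the same edgeR test. After Benjamini-Hochberg adjustment over all genes, the edgeR test gave 0 of the 10 at an adjusted p under 0.1, as it did for the whole table (0%), and DESeq2 also gave 0 of the 10 at that threshold, against 0.00724% of all genes tested. On counts simulated with the replicate difference of these data, this edgeR test called none of the changes put in at that threshold. Its 0 therefore cannot tell changed genes from unchanged ones. The median log2 fold change was 0.05 over the 10 genes, also with *Sod3* set to its lower bound, and 0.01 over all genes tested. The 2 EGCG libraries lay apart from the 2 Vehicle libraries for *Sod3* alone among the 10, while 11.9% of all genes tested showed no overlap in either direction. The other 9 genes had adjusted p-values of 1.00 in the edgeR quasi-likelihood test with Benjamini-Hochberg adjustment. With 2 libraries against 2, an exact permutation test cannot give a two-sided p under 0.333, so the p-values given here rest on the count models.

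**Figure D1:**
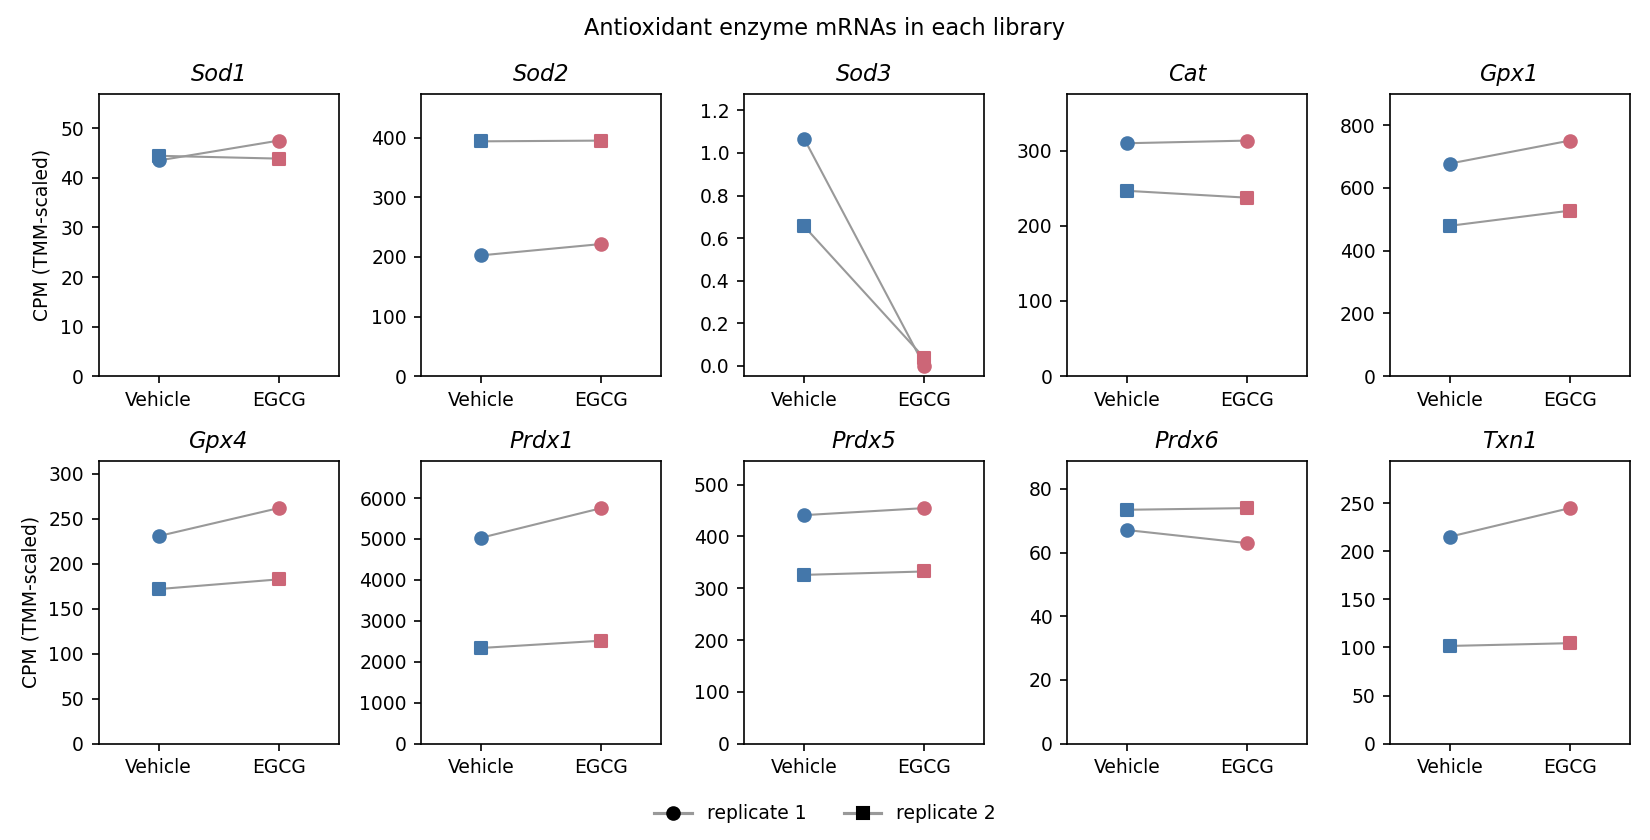
Each panel plots the level of 1 antioxidant gene (vertical axis, CPM on TMM-scaled library sizes, scale set per gene) in the Vehicle and EGCG libraries, with a line joining the libraries of a replicate (circles, replicate 1; squares, replicate 2). The lines are nearly flat and apart from each other for most genes, and *Sod3* falls to the bottom of its scale in both EGCG libraries.

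How much mRNA each enzyme had was compared per length, as TPM computed from the counts and the gene lengths in the tables. *Prdx1* stood highest, at a mean of 3348 TPM in the Vehicle libraries (SD 1527, n = 2), and ranged from 2268 to 4882 TPM over the 4 libraries. *Gpx1* followed at 1120 TPM (SD 196), and the ranges of these highest-ranked genes did not overlap with each other or with any gene below. *Prdx5* (501 TPM in Vehicle), *Txn1* (417 TPM), *Gpx4* (326 TPM) and *Cat* (298 TPM) came next, and each overlapped its neighbour in this order over the 4 libraries. *Sod2* had 85.2 TPM in Vehicle, *Prdx6* 41.2 TPM and *Sod1* 31.2 TPM, with no overlap between neighbours. *Sod3*, at 0.641 TPM in Vehicle, was lowest. The tables give *Sod1* a length of 3970 bases, against 641 in its principal GENCODE transcript. With principal transcript lengths, an alternative chosen after the lengths were seen, *Sod1* had 156 TPM in Vehicle and ranked above *Sod2* (117 TPM) and *Prdx6* (66.9 TPM). *Gpx4* (474 TPM) then ranked above *Txn1* (338 TPM), and the order of the other genes was as before.

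Among the superoxide dismutases, the secreted enzyme was the exception. *Sod3* (ENSMUSG00000072941, chr5:52363791-52371418, plus strand, GRCm38.p6) had 35 counts under Vehicle and 0 under EGCG in replicate 1, and 24 and 2 in replicate 2. These correspond to 1.07, 0, 0.655 and 0.0363 CPM. Both Vehicle libraries held reads of *Sod3*, and both EGCG libraries were below the floor of 3 counts, so the groups did not overlap. In replicate 1, *Sod3* was at least 11.4-fold lower with EGCG when EGCG replicate 1 was set to that floor (0.0936 CPM). In replicate 2, Vehicle was 18.1 times EGCG, with an exact 95% interval of 4.48 to 158 that covers counting error only. The unadjusted p was 0.0114 with n = 2 per group. The adjusted p was 1.00 in the edgeR quasi-likelihood test with Benjamini-Hochberg adjustment, and between 0.623 (DESeq2 with a replicate block) and 1.00 under the alternatives. Leaving out EGCG replicate 1 gave a log2 fold change of -4.46, which rests on a lone EGCG library with 2 counts, below the floor.

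The *Sod3* counts were set beside the markers of other cell types. From Vehicle to EGCG in replicate 1, *Sod3* went from 35 to 0 counts, the fibroblast list from 423 to 4.87 summed CPM and the mural list from 111 to 74.4. In replicate 2, *Sod3* went from 24 to 2 counts, whereas the fibroblast list was at 157 CPM in Vehicle and 174 in EGCG. The mural list was there at 49.2 and 55.6 CPM, of which *Cspg4* made up 39.2 and 40.3. By gene, 4 of the 7 fibroblast markers were lower with EGCG in both replicates, the median difference in log2 CPM over the 7 being -7.73 in replicate 1 and -0.02 in replicate 2. Within the sum, *Col3a1* rose from 59.7 to 79.3 CPM in replicate 2. The endothelial list was lower with EGCG in both replicates in its sum, the median difference in log2 CPM over its 3 tested genes being -0.09 and -0.24. Within it *Kdr* differed by -0.09 and -0.08 and *Pecam1* by 0.37 and -0.24, while *Cdh5*, picked out after its values were seen, had 79 and 26 counts in Vehicle and EGCG of replicate 1 and 34 and 13 in replicate 2. The part of these cell types in the *Sod3* difference was not tested.

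**Figure D2:**
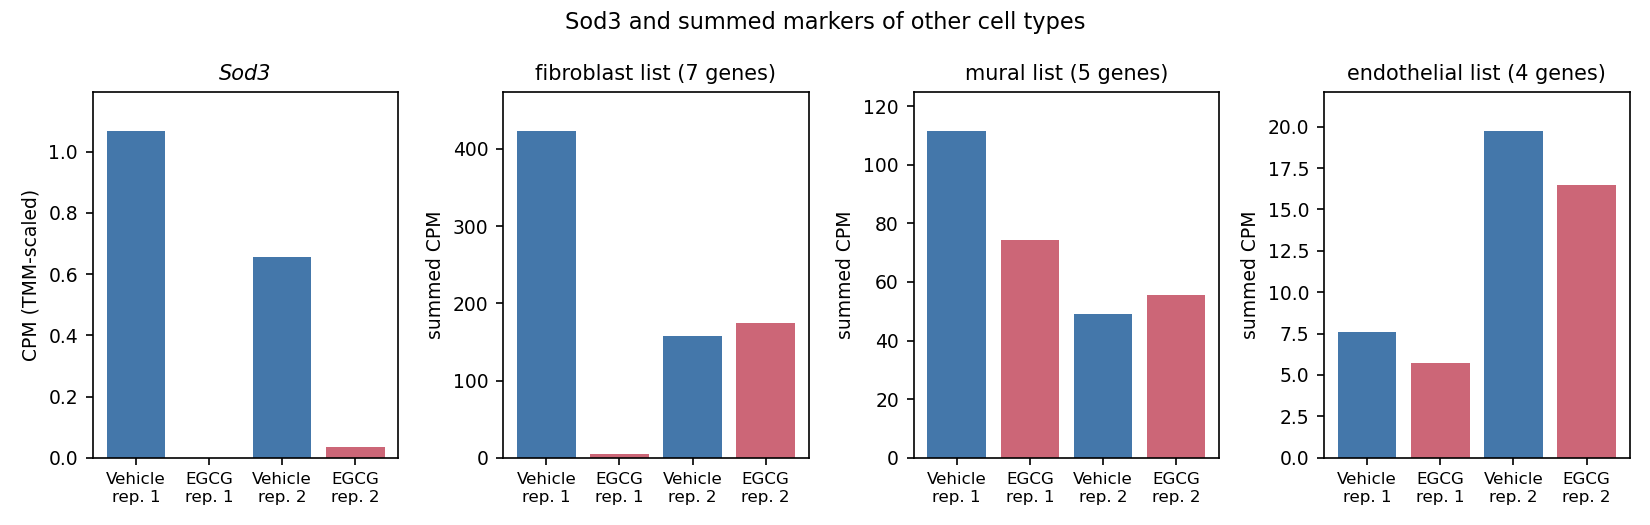
Bars give, for each of the 4 libraries, the level of *Sod3* and the summed levels of the fibroblast, mural and endothelial marker lists (vertical axes, CPM on TMM-scaled library sizes, starting at 0). The fibroblast sum is close to 0 in EGCG replicate 1 alone, while *Sod3* is at or near 0 in both EGCG libraries.

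Genes with the pattern closest to *Sod3* were found by the Euclidean distance between log2 CPM values centred over the 4 libraries. *Prg4*, which encodes the secreted lubricant proteoglycan lubricin, was nearest (distance 0.98), with 66, 0, 21 and 6 counts. It was followed by the matrix protein gene *Efemp1* (distance 1.41), the homeobox gene *Prrx2* (1.52), the transcription factor gene *Foxp2* (1.54) and *Lhfp* (1.57). *Lhfp*, the most highly counted of these, had 108, 4, 31 and 25 counts. All 5 had at most 4 counts in EGCG replicate 1, and their counts in EGCG replicate 2 ran from 0 to 25.

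The intracellular superoxide dismutases did not separate by treatment. *Sod1*, the cytosolic enzyme (chr16:90220754-90226329, plus strand), was at 43.5 CPM under Vehicle and 47.5 under EGCG in replicate 1, and at 44.5 and 43.9 in replicate 2. All 4 libraries lay between 43.5 and 47.5 CPM, and the log2 fold change was 0.06 (SE 0.13). *Sod2*, the mitochondrial enzyme (chr17:13006846-13040063, plus strand), was at 203 CPM under Vehicle and 221 under EGCG in replicate 1, and at 394 and 395 in replicate 2. Here the libraries split by replicate and not by treatment, and the log2 fold change was 0.05 (SE 0.47). SEs printed beside log2 fold changes are from the edgeR fit without a replicate term, so they hold the difference between replicates. With the replicate added to that fit as a block, the SE of *Sod2* was 0.056.

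Catalase, which breaks down hydrogen peroxide without a reducing partner, also followed the replicate. *Cat* (chr2:103453849-103485160, minus strand) was at 310 CPM under Vehicle and 313 under EGCG in replicate 1, and at 246 and 237 in replicate 2. The libraries of replicate 1 were both above those of replicate 2, and the log2 fold change with EGCG was -0.01 (SE 0.23).

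The glutathione peroxidases were a little higher with EGCG in each replicate. *Gpx1*, the abundant cytosolic enzyme (chr9:108338903-108340343, plus strand), was at 678 CPM under Vehicle and 751 under EGCG in replicate 1, and at 479 and 527 in replicate 2. *Gpx4*, which reduces lipid peroxides in membranes and holds back ferroptosis (chr10:80047166-80056439, plus strand), was at 231, 262, 172 and 183 CPM. For both genes EGCG was above Vehicle within each replicate, but Vehicle replicate 1 was above EGCG replicate 2, so the groups overlapped. The EGCG minus Vehicle difference in log2 CPM was 0.15 in replicate 1 and 0.14 in replicate 2 for *Gpx1*, and 0.18 and 0.09 for *Gpx4*. The fit without a replicate term gave log2 fold changes of 0.14 for *Gpx1* (SE 0.30) and 0.14 for *Gpx4* (SE 0.27).

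With the replicate, and so the deposited table, added to the edgeR fit as a block, the unadjusted p was 0.0461 for *Gpx1*, 0.0447 for *Gpx4* and 0.00339 for *Sod3*. That made 2 of the 10 genes higher and 1 lower at an unadjusted p under 0.05, where the same fit called 2.12% of all genes tested higher and 1.09% lower. The lower gene was *Sod3*, picked from these samples, so with either tool its call is not evidence about the 10 as a set. None of the 10 had an adjusted p under 0.1 in that edgeR quasi-likelihood test with Benjamini-Hochberg adjustment (lowest 0.995), against 0.00724% of all genes tested. DESeq2 with the block also gave 3 of the 10 an unadjusted p under 0.05, namely *Gpx1*, *Prdx1* and *Sod3*, without *Gpx4*, against 1.11% of all genes tested. On simulated counts, edgeR with the block made a larger share of false calls at the adjusted threshold than that threshold allows. The edgeR calls of *Gpx1* and *Gpx4*, close to an unadjusted p of 0.05, have to be read with that limit.

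*Gpx1* and *Gpx4* share a feature that sets them apart from the other 8 genes: both carry selenocysteine at the active site, encoded by an in-frame TGA that is read through with a dedicated tRNA. Of the 44 other antioxidant genes listed, 7 are annotated with such a codon, among them *Gpx3*, the secreted glutathione peroxidase. The coding sequences around it are shown for these 3 peroxidases, since they were the selenocysteine genes with an unadjusted p under 0.05 in the edgeR fit with the replicate block, each higher with EGCG. *Gpx1* has the codon at position 47 of its reading frame (chr9:108339451-108339453), *Gpx4* at position 73 (chr10:80054737-80054739) and *Gpx3* at position 73 (chr11:54907256-54907258). Each line gives the codon in capitals with 21 bases on either side, on the coding strand, from the GENCODE transcripts of GRCm38.
*Gpx1*: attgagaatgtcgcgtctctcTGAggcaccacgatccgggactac
*Gpx4*: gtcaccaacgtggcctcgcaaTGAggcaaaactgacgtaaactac
*Gpx3*: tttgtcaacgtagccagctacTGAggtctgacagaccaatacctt
Of the 9 selenocysteine genes among the 10 and the 44, 8 were tested, *Gpx2* being at 0 in every library. Since the group was looked at because of the 3 peroxidases shown, only the other 5 add to them. Of these, *Msrb1* and *Sephs2* were above Vehicle in both replicates, against 29.9% of all genes tested, and *Txnrd1* and *Txnrd3* were mixed. *Txnrd2*, the mitochondrial thioredoxin reductase, was below Vehicle in both (differences in log2 CPM of -0.07 and -0.15), as were 20.6% of all genes tested. Over all 8 tested, including the 3 peroxidases shown, 5 were above Vehicle in both replicates and 1 below. With libraries scaled by total counts alone these were 5 and 3, against 21.1% and 30.4% of all genes tested.

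The peroxiredoxins reduce peroxides through a reactive cysteine. *Prdx1*, a cytosolic enzyme and the most abundant mRNA of the 10 per length (chr4:116685544-116700822, plus strand), was at 5031 CPM under Vehicle and 5753 under EGCG in replicate 1, and at 2338 and 2515 in replicate 2. Both libraries of replicate 1 were far above both of replicate 2, and within each replicate EGCG was slightly above Vehicle, by 0.19 and 0.11 in log2 CPM. The log2 fold change was 0.17 (SE 0.61). *Prdx5*, found in mitochondria, peroxisomes and the cytosol (chr19:6906697-6910106, minus strand), was at 441, 455, 326 and 332 CPM. *Prdx6*, which also has phospholipase activity (chr1:161240112-161251219, minus strand), was at 67.0, 62.9, 73.4 and 73.9 CPM. Neither separated by treatment, with log2 fold changes of 0.04 for *Prdx5* (SE 0.26) and -0.04 for *Prdx6* (SE 0.15).

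Thioredoxin, the small protein that reduces peroxiredoxins and is itself reduced by thioredoxin reductase, split by replicate as *Prdx1* did. *Txn1* (chr4:57943373-57956411, minus strand) was at 215 CPM under Vehicle and 245 under EGCG in replicate 1, and at 102 and 104 in replicate 2. Levels in replicate 1 were above those in replicate 2 under both treatments, and the log2 fold change with EGCG was 0.14 (SE 0.59).

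Differences between the replicates were larger than differences with EGCG for most of these genes. In 8 of the 10, the smaller of the differences between replicates exceeded the larger of the EGCG differences in log2 CPM, as it did in 57.1% of all genes tested. *Prdx1* was higher in replicate 1 than in replicate 2 by 1.11 in log2 CPM under Vehicle and 1.19 under EGCG, and *Txn1* by 1.08 and 1.23. These were 2 of the 10 with more than a 2-fold difference under both treatments, against 13.4% of all genes tested. *Sod2* went the other way, by -0.96 under Vehicle and -0.83 under EGCG, as did *Prdx6*, by -0.13 and -0.23. *Gpx1* (0.50 and 0.51), *Prdx5* (0.44 and 0.45), *Gpx4* (0.42 and 0.52) and *Cat* (0.33 and 0.40) were also higher in replicate 1, whereas *Sod1* differed by -0.03 and 0.11. The microglia markers differed between the replicates as well, *Csf1r* being at 1195 and 1264 CPM in Vehicle and EGCG of replicate 1 and at 2373 and 2403 in replicate 2, and *Itgam* at 404 and 417 CPM and then at 169 and 168. These 2 were picked out after their values were seen, and their part in the differences between replicates was not tested.

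**Figure D3:**
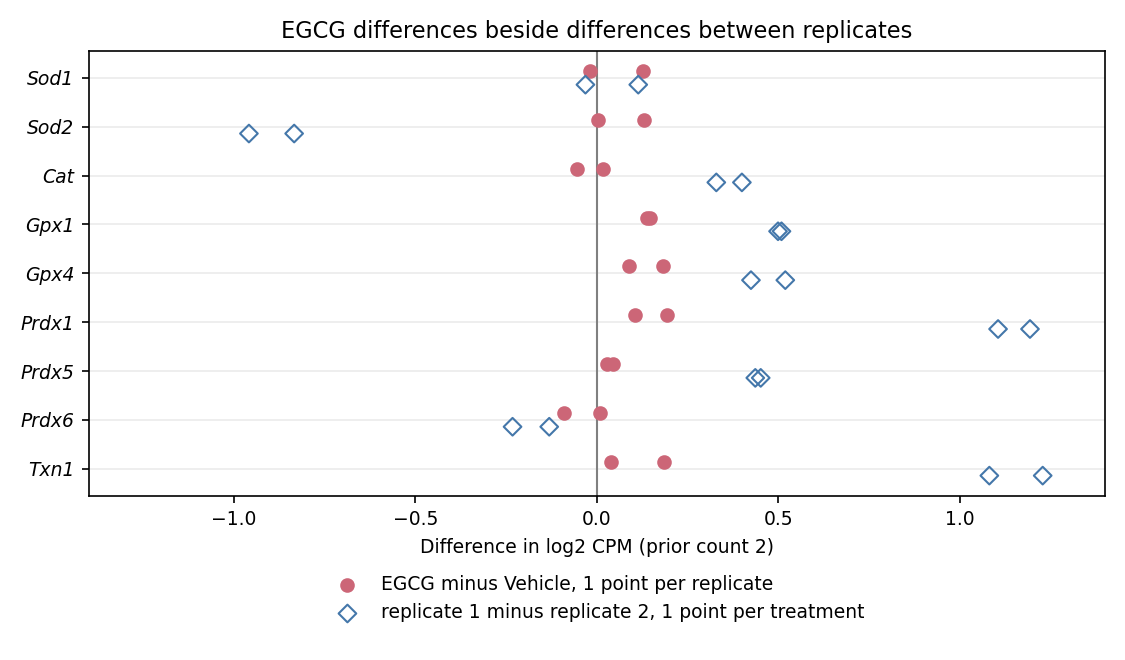
Horizontal positions give differences in log2 CPM (prior count 2) for the 9 antioxidant genes other than *Sod3*: filled circles are EGCG minus Vehicle in each replicate, and open diamonds are replicate 1 minus replicate 2 in each treatment. Circles lie between -0.09 and 0.19, while diamonds reach 1.23 for *Txn1* and -0.96 for *Sod2*.

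Within replicates, 9 of the 10 genes had EGCG differences smaller than 0.25 in log2 CPM in both replicates, which held for 65.1% of all genes tested. EGCG was above Vehicle in both replicates for 6 of the 10 (*Sod2*, *Gpx1*, *Gpx4*, *Prdx1*, *Prdx5* and *Txn1*), against 29.9% of all genes tested. Scaling by total counts alone left 4 of the 10 (*Gpx1*, *Gpx4*, *Prdx1* and *Txn1*), against 21.1% of all genes. *Sod3* was below Vehicle in both replicates under each scaling, joined by *Cat* with total counts alone. The pooled fold changes of the 9 genes other than *Sod3*, between -0.04 and 0.17, rested on which libraries were compared: without EGCG replicate 1, 7 of the 9 changed sign, with *Txn1* at -0.60 and *Prdx1* at -0.55. That comparison sets EGCG replicate 2 against both Vehicle libraries without a replicate term, so it takes in the difference between replicates. Within each replicate, EGCG was above Vehicle for both of these genes.

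Partners of these enzymes were described from lists of 44 further antioxidant genes, of which 41 were tested. In the fit without a replicate term, 0 of the 41 had an unadjusted p under 0.05 in edgeR and 0 in DESeq2, and with the replicate block edgeR gave 1, *Gpx3*, and DESeq2 gave 2, *Sesn1* and *Slc7a11*, without *Gpx3*. Without the block, edgeR called 0.116% of all genes tested in either direction, and DESeq2 called 24 of the 13811. The blocked edgeR fit called 2.12% of all genes tested higher and 1.09% lower, and the blocked DESeq2 fit 1.11% in either direction. *Gpx3* was at 47.7 CPM under Vehicle and 54.5 under EGCG in replicate 1, and at 31.8 and 39.9 in replicate 2. It was higher with EGCG in each replicate but overlapped between groups, with a log2 fold change of 0.25 (SE 0.29) and an unadjusted p of 0.438 that became 0.00892 with the block (0.0572 in DESeq2 with the block). The adjusted p of *Gpx3* was 1.00 without and 0.995 with the block in the edgeR quasi-likelihood test with Benjamini-Hochberg adjustment. The median log2 fold change over the 41 was 0.04, and 16 of them were above Vehicle in both replicates and 8 below it in both, against 29.9% and 20.6% of all genes tested. With libraries scaled by total counts alone these were 13 and 14, against 21.1% and 30.4%.

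By list, the most abundant gene per length differed little with EGCG. Among the other peroxidases this was *Prdx2*, a cytosolic peroxiredoxin, at a mean of 130 TPM in Vehicle and a log2 fold change of 0.08 (SE 0.31). *Gpx2*, *Gpx5* and *Gpx6* were at 0 counts in every library. With TMM scaling, 5 of the 6 other peroxidases tested, *Gpx3* among them, were above Vehicle in both replicates and 0 below, against 29.9% and 20.6% of all genes tested. In the thioredoxin and glutaredoxin system, *Txnip*, which binds and inhibits thioredoxin, had 366 TPM and a log2 fold change of 0.10 (SE 0.15). *Srxn1*, the sulfiredoxin that repairs over-oxidised peroxiredoxins, had 283 TPM and a log2 fold change of -0.01 (SE 0.40). For glutathione synthesis and reduction, *G6pdx*, which supplies NADPH, had 214 TPM and a log2 fold change of 0.03 (SE 0.15), and 3 of the 6 genes of that list were below Vehicle in both replicates, against 20.6% of all genes tested. *Msrb1*, a methionine sulfoxide reductase that carries selenocysteine, had 269 TPM and a log2 fold change of 0.07 (SE 0.52). The copper chaperone *Atox1* had 579 TPM and a log2 fold change of 0.04 (SE 0.37), and *Sephs2*, which makes the selenium donor for selenocysteine, had 62.1 TPM and a log2 fold change of 0.08 (SE 0.12).

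A pair of low genes from these lists, picked out after their values were seen, had their lowest counts in EGCG replicate 1. *Gpx8*, a peroxidase of the endoplasmic reticulum, had 42 counts under Vehicle and 3 under EGCG in replicate 1, and 14 and 27 in replicate 2. *Msrb3*, another methionine sulfoxide reductase, had 36, 2, 35 and 38 counts. Scaled for depth, *Gpx8* was at 1.28, 0.0936, 0.382 and 0.489 CPM and *Msrb3* at 1.10, 0.0624, 0.955 and 0.689 CPM. *Msrb3* was thus lower with EGCG in both replicates and did not overlap between groups, whereas *Gpx8* was lower in replicate 1 alone. No overlap, in either direction, was seen for 6 of the 41 tested genes of these lists and for 11.9% of all genes tested. The 2 counts of *Msrb3* in EGCG replicate 1 are below the floor of 3 counts. EGCG replicate 1 was the library with 4.87 summed CPM of fibroblast markers. The part of those cells in these counts was not tested.

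Reads of some of these genes could be shared with near-identical copies or overlapping genes, and the way such reads were counted is not stated. *Gpx4* has an annotated processed pseudogene, *Gpx4-ps2*, with 99.7% identity over 762 bases, and its counts were 13.3%, 14.1%, 16.5% and 15.0% of those of *Gpx4*. With them added, the EGCG minus Vehicle difference in log2 CPM of *Gpx4* was 0.19 in replicate 1 and 0.07 in replicate 2. *Gm21399*, a processed pseudogene with 98.3% identity to *Prdx1* over 597 bases, was at 22.4, 25.0, 42.3 and 47.2 CPM. It was higher in replicate 2, where *Prdx1* itself was lower. A further pseudogene of *Prdx1*, *Gm7204*, had 8, 7, 1 and 6 counts. Together the pseudogenes of *Prdx1* amounted to at most 1.88% of its counts, and the pseudogene *Gm8566* to at most 1.86% of those of *Sod1*. No annotated pseudogene of *Sod2*, *Sod3*, *Cat*, *Gpx1*, *Prdx5* or *Prdx6* was found at 90% identity over 200 bases, and that of *Txn1* was at 0 counts. *Sod1* overlaps *Scaf4* by 650 bases and *Prdx5* overlaps *Trmt112* by 409 bases, each on the opposite strand. The study describes mRNA quantification on its sequencing platform as strand-specific. Whether strand was used when reads were assigned to genes is not stated, so reads from these overlaps may be shared.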

How the data were processed

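For each replicate the authors deposited a table of whole-number read counts by gene, without normalization, with a gene length beside them. Per the submitters' processing notes, reads were aligned with HISAT2 to GRCm38.p6. The study describes mRNA quantification on its sequencing platform as strand-specific. The counting program, its annotation and whether that program used strand are not stated. Treatments and replicate numbers came from the labels, and the study's submission sheet tied each count table to its replicate. Rows were matched between tables by Ensembl identifier (54532 genes), and 697 and 329 loci without one, assembled per table, were dropped.

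The antioxidant genes, the other lists and the marker lists were chosen with earlier results of these data known. The main test was the two-sided quasi-likelihood F test of edgeR 4.0.16 (R 4.3.3, TMM) with a treatment term alone, on protein-coding genes whose counts over the 4 libraries summed to 10 or more. Thresholds were an unadjusted p under 0.05 and a Benjamini-Hochberg adjusted p under 0.1. DESeq2 1.42.0 was an alternative, as were other scalings, filters, gene classes, a replicate block and leaving out each library. CPM used TMM-scaled library sizes, log2 CPM a prior count of 2, and TPM the counts and gene lengths of the tables. The floor of 3 counts corresponded to between 0.0544 and 0.0936 CPM. Near-identical copies were found with BLAST 2.17.0 among GENCODE M21 transcripts, which also gave the selenocysteine codons. All 10 genes have the same position in the tables and in GENCODE. Genes named are the 10, the most abundant of each list per length, genes of the other antioxidant lists with an unadjusted p under 0.05 in edgeR with or without the block, markers at 0 throughout, the 5 patterns nearest *Sod3*, and annotated pseudogenes with at least 10 counts. Others were picked out after their values were seen. The edgeR and DESeq2 fits were tested on simulated counts with the replicate difference of these data. All recovered the size of the changes put in, but at the adjusted threshold edgeR without the block called none of them, and edgeR with the block made a larger share of false calls than the threshold allows.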

Additional observations from a re-analysis of the deposited data

How the results depend on the processing

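Of the 10 antioxidant genes, 1 (*Sod3*) had an unadjusted p under 0.05 with DESeq2, the newer edgeR dispersion method, RLE factors, total counts, no filter on low counts, all gene classes and without any 1 library. Requiring 10 counts in each library gave 0, since *Sod3* was then not tested. With the replicate block, the count was 3 in edgeR and 3 in DESeq2, and no other alternative changed it. All alternatives gave 0 of the 10 at an adjusted p under 0.1 (edgeR or DESeq2, Benjamini-Hochberg). The labels do not say what same-numbered libraries share. Across genes, the replicate 2 minus replicate 1 difference in Vehicle correlated with that in EGCG (r = 0.64, n = 13811). A chi-square between the counts of a pair of libraries, averaged per gene, was 11.85 between Vehicle and EGCG of replicate 1 and 9.835 in replicate 2. Between the replicates of a treatment it was 263.6 in Vehicle and 263.2 in EGCG. Libraries of the same number were thus far more alike than libraries of the same treatment.

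Over all genes, 16 had an unadjusted p under 0.05 in edgeR. The count was 38 with the newer dispersion method, 3 with 10 counts in every library, 35 with all gene classes, 444 in edgeR and 153 in DESeq2 with the replicate block, and 8 to 131 leaving out 1 library. At an adjusted p under 0.1 (Benjamini-Hochberg), edgeR gave 0, DESeq2 1, edgeR with the block 1 and DESeq2 with the block 7. Of the other antioxidant genes, 0 had an unadjusted p under 0.05 in edgeR, 1 in edgeR and 2 in DESeq2 with the replicate block, and 0 to 1 leaving out 1 library. Apart from the stated filter, the cause was not tested.

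Of 233 log2 fold changes of 18 named genes under alternatives, 200 kept their direction and side of the threshold, 5 came to have an unadjusted p under 0.05 (all with the replicate block) and 28 changed sign, all 28 when 1 library was left out. One treatment then has a lone library, assumed to vary like the others, and the comparison takes in the difference between replicates. Leaving out 1 library in turn gave log2 fold changes from -0.0052 to 0.081 for *Sod1*, -0.46 to 0.59 for *Sod2*, -0.23 to 0.16 for *Cat*, -0.14 to 0.42 for *Gpx1*, -0.14 to 0.37 for *Gpx4*, -0.55 to 0.82 for *Prdx1*, -0.21 to 0.27 for *Prdx5*, -0.19 to 0.072 for *Prdx6* and -0.60 to 0.78 for *Txn1*. For the other antioxidant genes they ran from -0.32 to 0.48 for *Atox1*, -0.044 to 0.089 for *G6pdx*, -0.034 to 0.57 for *Gpx3*, -0.55 to 0.65 for *Msrb1*, -0.23 to 0.40 for *Prdx2*, 0.057 to 0.090 for *Sephs2*, -0.49 to 0.36 for *Srxn1* and 0.051 to 0.12 for *Txnip*, which was lowest without EGCG replicate 1 (0.051) and without Vehicle replicate 2 (0.053). The p of *Sod3* was between 0.0146 and 0.0303 without 1 library. TPM over protein-coding genes alone moved *Sod1* from 31.2 to 34.0 in Vehicle, more than the SD between its replicates, and no other of the 10 by as much as its SD. Depth limits *Sod3* most, with no more than 35 counts in any library.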

Other observations

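In the list of 6 genes of glutathione synthesis and reduction, 3 were below Vehicle in both replicates, against 20.6% of all genes tested, and these were picked out after their values were seen. The other 3, *G6pdx*, *Gsr* and *Gss*, were not. With TMM scaling, the list of other peroxidases had 5 of its 6 tested genes above Vehicle in both replicates and 0 below. Of these, *Prdx3* and *Gpx7*, picked out after their values were seen, were above by only 0.05 and 0.03 in log2 CPM in replicate 1. Scaling by total counts alone moved the median of all genes tested in replicate 1 from 0.03 to -0.02. The direction of such small differences thus depends on the scaling. *Slc7a11*, the cystine carrier that feeds glutathione synthesis, was at 561 CPM under Vehicle and 482 under EGCG in replicate 1, and at 279 and 267 in replicate 2. *Gclm*, the modifier subunit of the rate-limiting enzyme of glutathione synthesis, was at 152, 144, 111 and 100 CPM in the same order, and *Gclc*, its catalytic subunit, at 86.1, 77.6, 63.3 and 60.6 CPM. EGCG was below Vehicle within each replicate for all 3, although the groups overlapped. The EGCG minus Vehicle differences in log2 CPM were -0.22 and -0.06 for *Slc7a11*, -0.08 and -0.15 for *Gclm*, and -0.15 and -0.06 for *Gclc*. None of the 3 had an unadjusted p under 0.05 in edgeR (0.750, 0.705 and 0.651, or 0.0649, 0.0660 and 0.129 with the replicate block), and with DESeq2 and the block the p of *Slc7a11* was 0.0481. With the block, the adjusted p of all 3 was 0.995 in the edgeR quasi-likelihood test with Benjamini-Hochberg adjustment.

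*Sesn1*, a sestrin that lowers peroxide stress and restrains mTORC1, was also picked out after its values were seen. It was at 30.8 CPM under Vehicle and 42.9 under EGCG in replicate 1, and at 85.4 and 89.3 in replicate 2. It was higher in replicate 2 under both treatments, and EGCG was above Vehicle by 0.47 in log2 CPM in replicate 1 and by 0.07 in replicate 2 (unadjusted p = 0.787 in edgeR, 0.0567 with the replicate block, and 0.0492 with DESeq2 and the block).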
